A study of Mus musculus with 12 samples.

Results

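A set of 10 mouse genes whose transcript was lower after hypoxia was followed through every probe set that represents them: Spsb2, Ercc8, Apex2, Orai1, Nfkbie, Zfp36l1, Cdc25a, Gpd1l, Armcx2 and Gmppb. They were chosen because at least 1 probe set of each had a lower signal in hypoxia in these same arrays, so their response is described here without a test. The 10 genes have 23 of the 45037 probe sets on the array. Of these, 20 had a mean signal of at least 100 over the 12 arrays and were carried through the analysis, and 3 were below that level, 2 of Ercc8 and 1 of Cdc25a.

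The data were 12 Affymetrix Mouse430_2 arrays of total RNA from 6 lines of primary mouse embryonic fibroblasts, connective tissue cells grown out of e14.5 embryos, each line measured in hypoxia (0.1% O2) and in normoxia (21% O2) after 6 h. The 3 triCH1 lines lack the CH1 domain, a protein-binding domain, in 3 of the 4 alleles of the coactivator genes Crebbp (CBP) and Ep300 (p300), and their remaining allele was floxed, in Crebbp for triCH1flox1 and in Ep300 for triCH1flox2_1 and triCH1flox2_2. The 3 control lines have wild-type coactivator alleles except for 1 floxed allele, in Crebbp for flox1 and in Ep300 for flox2_1 and flox2_2. All 6 lines received Cre recombinase by adenovirus at passage 3 and were then expanded at least 100 fold, so the control lines had also been exposed to Cre and were set up to lose 1 allele of a coactivator. All were kept at 37 °C with 5% CO2 in medium with 10% serum. The extent of recombination in each line was not analysed here, and the labels do not say that arrays of a group came from separate embryos. Values below are array signals scaled by the authors to a mean of 500, and a response is the difference, hypoxia minus normoxia, of log2(signal + 20). Values of 3 lines are always in the order flox1, flox2_1, flox2_2 or triCH1flox1, triCH1flox2_1, triCH1flox2_2.

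Cells short of oxygen stabilise the hypoxia-inducible factors (HIF), which bind DNA at a core such as ACGTG and recruit CBP and p300, in part through the CH1 domain, to raise transcription. Lower transcript levels in hypoxia are less uniform: they can follow from less transcription, from faster decay of the mRNA or from microRNAs such as miR-210, which HIF induces and which in human cells represses GPD1L, among others. The 10 genes have no single pathway in common, and span ubiquitin ligase receptors, DNA repair, calcium entry, NF-kB inhibition, mRNA decay, the cell cycle and metabolism.

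Promoter sequences are shown for the 7 genes in which 1 of 4 searched motifs was found. The motifs are patterns for factors that the treatment or a gene's known role brings to mind. RefSeq promoters (build GRCm38.p6, 250 bases before to 50 after the start of the gene) were at hand for 8 of the 10 genes, all but Apex2 and Gmppb, and Zfp36l1 held none of the motifs. Spsb2 has 2 promoters, 33 bases apart, and the one that starts first is printed. Each promoter was searched on both strands for ACGTG, the HIF core, and for CACGTG, the E-box that contains ACGTG and is bound by Myc, Max and USF proteins. The other 2 motifs were TTTGGCGC, an E2F site, and GGG, any 3 bases and TTCC, a loose pattern for NF-kB sites. A match of the loose pattern need not be an NF-kB site. The 250 bases before the start are printed 5′ to 3′ on the gene's strand, with the match in capitals. The match is CACGTG in Gpd1l (minus strand of the chromosome) and Ercc8 (plus strand), and ACGTG read on the opposite strand in Spsb2 (plus strand) and Armcx2 (minus strand). It is TTTGGCGC in Cdc25a (plus strand) and the loose NF-kB pattern in Nfkbie and Orai1 (plus strand).
Gpd1l, chr9:114933988-114934237: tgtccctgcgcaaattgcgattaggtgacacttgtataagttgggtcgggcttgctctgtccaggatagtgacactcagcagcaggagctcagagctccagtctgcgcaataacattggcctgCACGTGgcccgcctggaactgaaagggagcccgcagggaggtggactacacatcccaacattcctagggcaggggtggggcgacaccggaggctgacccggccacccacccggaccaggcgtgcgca
Ercc8, chr13:108158488-108158737: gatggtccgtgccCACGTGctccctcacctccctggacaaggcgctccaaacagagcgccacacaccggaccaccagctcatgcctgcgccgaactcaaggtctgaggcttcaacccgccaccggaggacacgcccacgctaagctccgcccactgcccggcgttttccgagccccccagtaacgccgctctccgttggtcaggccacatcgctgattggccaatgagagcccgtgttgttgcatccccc
Spsb2, chr6:124808635-124808884: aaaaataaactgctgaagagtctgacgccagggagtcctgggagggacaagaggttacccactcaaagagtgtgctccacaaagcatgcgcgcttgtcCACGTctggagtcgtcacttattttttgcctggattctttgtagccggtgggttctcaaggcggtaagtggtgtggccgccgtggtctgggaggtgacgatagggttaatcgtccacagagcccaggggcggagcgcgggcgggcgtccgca
Cdc25a, chr9:109875329-109875578: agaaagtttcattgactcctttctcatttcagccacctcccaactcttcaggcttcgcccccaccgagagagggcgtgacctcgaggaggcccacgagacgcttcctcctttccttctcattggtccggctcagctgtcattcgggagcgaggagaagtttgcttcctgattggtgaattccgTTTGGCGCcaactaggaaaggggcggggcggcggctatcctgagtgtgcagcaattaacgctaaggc
Nfkbie, chr17:45555450-45555699: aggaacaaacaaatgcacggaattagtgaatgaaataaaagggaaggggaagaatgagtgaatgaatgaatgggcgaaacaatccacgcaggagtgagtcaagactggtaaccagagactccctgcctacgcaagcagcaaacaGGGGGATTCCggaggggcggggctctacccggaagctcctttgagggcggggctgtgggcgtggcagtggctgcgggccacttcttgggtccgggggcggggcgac
Orai1, chr5:123014824-123015073: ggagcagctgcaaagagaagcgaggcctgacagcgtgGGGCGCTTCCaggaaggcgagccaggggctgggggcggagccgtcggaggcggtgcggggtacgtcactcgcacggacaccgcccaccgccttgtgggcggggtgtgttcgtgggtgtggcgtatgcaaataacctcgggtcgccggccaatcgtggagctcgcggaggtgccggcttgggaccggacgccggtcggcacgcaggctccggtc
Armcx2, chrX:134809222-134809471: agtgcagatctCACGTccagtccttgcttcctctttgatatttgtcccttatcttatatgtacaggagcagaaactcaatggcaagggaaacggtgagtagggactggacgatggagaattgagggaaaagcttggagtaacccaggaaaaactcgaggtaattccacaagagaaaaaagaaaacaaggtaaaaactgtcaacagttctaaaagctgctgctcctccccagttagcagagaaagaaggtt
The 8 genes have 9 promoters. ACGTG stood in 5 of the 9, both of Spsb2 and those of Ercc8, Gpd1l and Armcx2, and in 19.7% of the 32544 promoters of this length. CACGTG stood in 2 of 9 and in 7.17% of all promoters. The loose NF-kB pattern was found in Orai1 and Nfkbie, 2 of 9, against 5.56% of all promoters, and TTTGGCGC in Cdc25a, 1 of 9, against 0.519%. The promoters of Spsb2 overlap and share their match. The match lay 127 bases before the start in Gpd1l, 237 in Ercc8, 152 in Spsb2, 67 in Cdc25a, 106 in Nfkbie, 213 in Orai1 and 239 in Armcx2. The motifs were picked with the treatment or the role of a gene in mind, so these shares are a description with no test. These are matches of letters, and binding was not measured in these samples.

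All 20 tested probe sets of the genes had a lower mean signal in hypoxia, with responses between −1.03 and −0.13 and a median of −0.63. Over all 18903 tested probe sets the median response was −0.03, and 55.8% were below 0. The median over the 20 was −0.68 in the triCH1 lines and −0.58 in the control lines. By line, it was −0.57 in triCH1flox1, −0.60 in triCH1flox2_1, −0.62 in triCH1flox2_2, −0.58 in flox1, −0.48 in flox2_1 and −0.63 in flox2_2. The number of the 20 that were lower in hypoxia was 20, 20 and 19 in the triCH1 lines and 18, 17 and 19 in the control lines. So every line had a lower median, and the few probe sets on the other side of 0 belonged to Spsb2, Ercc8, Apex2 and Armcx2. In 15 of the 20 the signal was lower in all 6 lines, which was true of 7.23% of all tested probe sets, and in 9 of the 20 every hypoxia array was below every normoxia array, which was true of 0.709%. Both counts use the contrast by which the genes were chosen and are a description. Total RNA of a culture was measured, so fewer cells with a transcript and less of it per cell cannot be told apart.

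**Figure D1:**
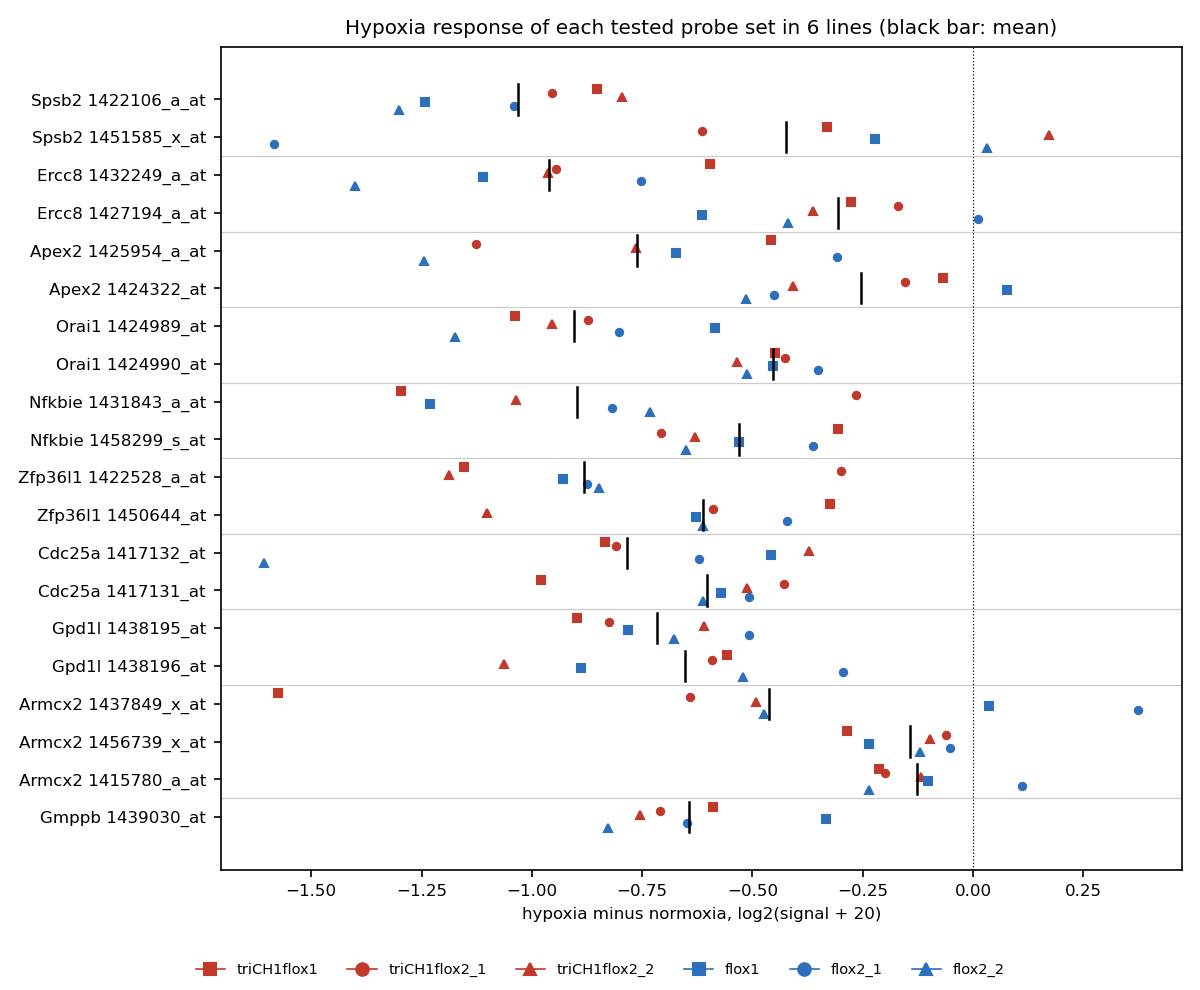
Response (hypoxia minus normoxia, log2(signal + 20)) of each of the 20 tested probe sets, grouped by gene. Each point is 1 line (red, triCH1; blue, control; the shape gives the line), the black bar is the mean over both line types and the dotted line is no difference. The bars lie between −1.03 (Spsb2 1422106_a_at) and −0.13 (Armcx2 1415780_a_at), and points right of 0 occur in Spsb2, Ercc8, Apex2 and Armcx2.

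Known targets of HIF and markers of cell types were set beside the 10 genes as a check of treatment and cells. Of 12 known HIF targets 11 passed limma's test as higher in hypoxia (median response 2.23), against 1.42% of all tested probe sets higher and 0.328% lower. The other, the growth factor gene Vegfa (1420909_at, 0.88 ± 0.22, limma adjusted p = 0.0746), passed with each line as a replicate block (adjusted p = 2.00e-04). Of the 11, Car9 (1427013_at) was dim in normoxia (37.9 ± 23.8, SD, n = 6). It no longer passed in 6 of 18 refits that left out 1 array or 1 line (limma adjusted p up to 0.111). Bnip3 (1422470_at), a mitophagy receptor gene, had 14655 ± 1906 in hypoxia and 672 ± 142 in normoxia (SD, n = 6 each), a response of 4.42 ± 0.13 (SE, limma adjusted p = 2.19e-10). Pdk1 (1423747_a_at), Egln3 (1418649_at) and Slc2a1 (1434773_a_at), which restrain pyruvate oxidation, hydroxylate HIF and import glucose, had 3.43 ± 0.19, 2.88 ± 0.18 and 1.50 ± 0.13. Fibroblast markers ranged widely in signal, with Col1a1 (1423669_at, a collagen gene) at 21251 ± 5333 in hypoxia and 22217 ± 2605 in normoxia, Col1a2 (1450857_a_at) at 29471 ± 4327 in hypoxia and 27986 ± 3697 in normoxia and the surface glycoprotein gene Thy1 (1423135_at) at 4251 ± 1776 in hypoxia and 4511 ± 2006 in normoxia, and 0 of 12 passed the test. With each line as a replicate block 1 of them, the growth factor receptor gene Pdgfra (1421917_at, −0.90 ± 0.50 without the block, SE), was called lower in limma (adjusted p = 0.561, and 0.0343 with the block). Pdgfra was dim, at 148 ± 139.8 in hypoxia and 289 ± 266 in normoxia. The intermediate filament gene Vim (1450641_at) had 0.10 ± 0.08. None of the 6 endothelial markers reached a mean signal of 100, and their summed signal was 101 to 235 in hypoxia and 128 to 224 in normoxia. Of the 7 epithelial markers 3 were tested and 1 passed, the keratin gene Krt19 (1417156_at, 1.69 ± 0.17, limma adjusted p = 3.09e-05). The adhesion gene Epcam (1447899_x_at) had −0.31 ± 0.23 and the keratin gene Krt18 (1448169_at) −0.13, so 2 of the 3 tested were below 0. The summed signal of the 7 was 3720 to 7722 in hypoxia and 1429 to 2622 in normoxia, while Cdh1 stayed at 5.8 to 98.1 in hypoxia and 19.6 to 56.3 in normoxia. Of the 6 skeletal muscle markers 2 were tested and 0 passed; their summed signal was 10329 to 17427 in hypoxia and 8054 to 18445 in normoxia, of which the actin gene Acta1 (1427735_a_at) had most, while the myogenic factor genes Myod1 (1418420_at) and Myog (1419391_at) averaged 47.3 and 19.8 over the 12 arrays. Acta1 had a response of 0.13 ± 0.14 and the filament gene Des (1426731_at) −0.20 ± 0.55. Macrophage and leukocyte markers (4 tested, 0 passed, median response −0.30) summed to 558 to 661 in hypoxia and 641 to 838 in normoxia, with Lyz2 (1423547_at) at −0.42 ± 0.26 and Cd14 (1417268_at) at −0.30 ± 0.20. The remaining tested markers went either way, Csf1r (1423593_a_at) with a response of −0.295 and Cd68 (1449164_at) with 0.07. Neural markers (3 tested, 0 passed, median −0.03) summed to 756 to 2102 in hypoxia and 811 to 2252 in normoxia, with the tubulin gene Tubb3 (1415978_at) at 0.10 ± 0.21 and Sox2 (1416967_at) at −0.07 ± 0.36. The scale factor applied to an array was 3.35 to 4.28 in hypoxia and 2.57 to 4.07 in normoxia. The part of cells that express Krt19 or Acta1, of macrophages and of the scale factor in the values of the 10 genes was not tested. With quantile normalization between arrays their median response was −0.62, in place of −0.63.

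Among the 3 genes that encode receptors of ubiquitin ligases or enzymes of DNA repair, 1 probe set each was clearly lower and the other less so. Spsb2 encodes a protein with a SPRY domain, which holds a target such as inducible nitric oxide synthase, and a SOCS box, which joins it to a cullin ubiquitin ligase. Its probe set 1422106_a_at read 285, 245 and 357 in the triCH1 lines and 221, 259.7 and 207 in the control lines in hypoxia, against 531, 493 and 634 in the triCH1 lines and 550.2, 556 and 539.7 in the control lines in normoxia. Every hypoxia array was below every normoxia array, and the mean was 262 ± 53.8 in hypoxia and 551 ± 46.4 in normoxia (SD, n = 6 each), or 47.7% of normoxia. Its response of −1.03 ± 0.13 (SE) was the 6th lowest of the 18903 tested, with −0.87 in the triCH1 lines and −1.19 in the control lines. The second probe set, 1451585_x_at, was dim, at 45.7 to 174 in hypoxia and 104 to 194 in normoxia, with a response of −0.42 ± 0.29 and 4 of 6 lines lower. A suffix of _x_at marks probe sets in which some probes also match other transcripts, _s_at those shared between transcripts of a gene family, and _a_at those that match several transcripts of 1 gene. In flox2_1 that probe set had a response of −1.58, and the next lowest line had −0.61, so most of its mean difference came from 1 line.

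Ercc8 encodes CSA, the WD-repeat receptor of the CUL4-DDB1 ubiquitin ligase that acts when RNA polymerase II stalls at damaged DNA, a protein mutated in Cockayne syndrome. The probe set 1432249_a_at gave 182, 187 and 205 in the triCH1 lines and 112, 189 and 100.3 in the control lines in hypoxia, against 285, 379 and 419 in the triCH1 lines and 264, 333 and 298 in the control lines in normoxia. The groups did not overlap, and the mean was 162 ± 44.6 in hypoxia and 329.6 ± 59.7 in normoxia (SD, n = 6 each), a response of −0.96 ± 0.17 (SE). The other tested probe set, 1427194_a_at, was 162 to 253 in hypoxia and 237 to 330.5 in normoxia. Its response was −0.31 ± 0.15, with 5 of 6 lines lower and flox2_1 at 0.01. The remaining probe sets, 1429439_at and 1454176_at, had mean signals of 35.7 and 28.1, too dim for a reliable difference, and were lower in 2 and 3 of 6 lines. The difference between the tested probe sets of Ercc8, 0.66 in log2 response, was the widest among the 9 genes with more than 1.

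Apex2 encodes an apurinic/apyrimidinic endonuclease with 3′-5′ exonuclease activity that cleans damaged DNA ends. Signals of 1425954_a_at were 258, 193 and 258 in the triCH1 lines and 168, 263 and 134 in the control lines in hypoxia, against 362, 445 and 452 in the triCH1 lines and 280.2, 330.2 and 344 in the control lines in normoxia. All hypoxia arrays lay below all normoxia arrays, with 212 ± 55.4 in hypoxia and 369 ± 67.5 in normoxia (SD, n = 6 each) and a response of −0.76 ± 0.17 (SE). Its highest hypoxia array, 263 in flox2_1, came close to the lowest normoxia array, 280.2 in flox1. The other probe set, 1424322_at, overlapped between conditions, at 282 to 414 in hypoxia and 366 to 497 in normoxia. Its response was −0.25 ± 0.13, and flox1 had a higher signal in hypoxia (387, against 365.5 in normoxia). For this gene the 2 probe sets thus differed by 0.51 in log2 response.

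**Figure D2:**
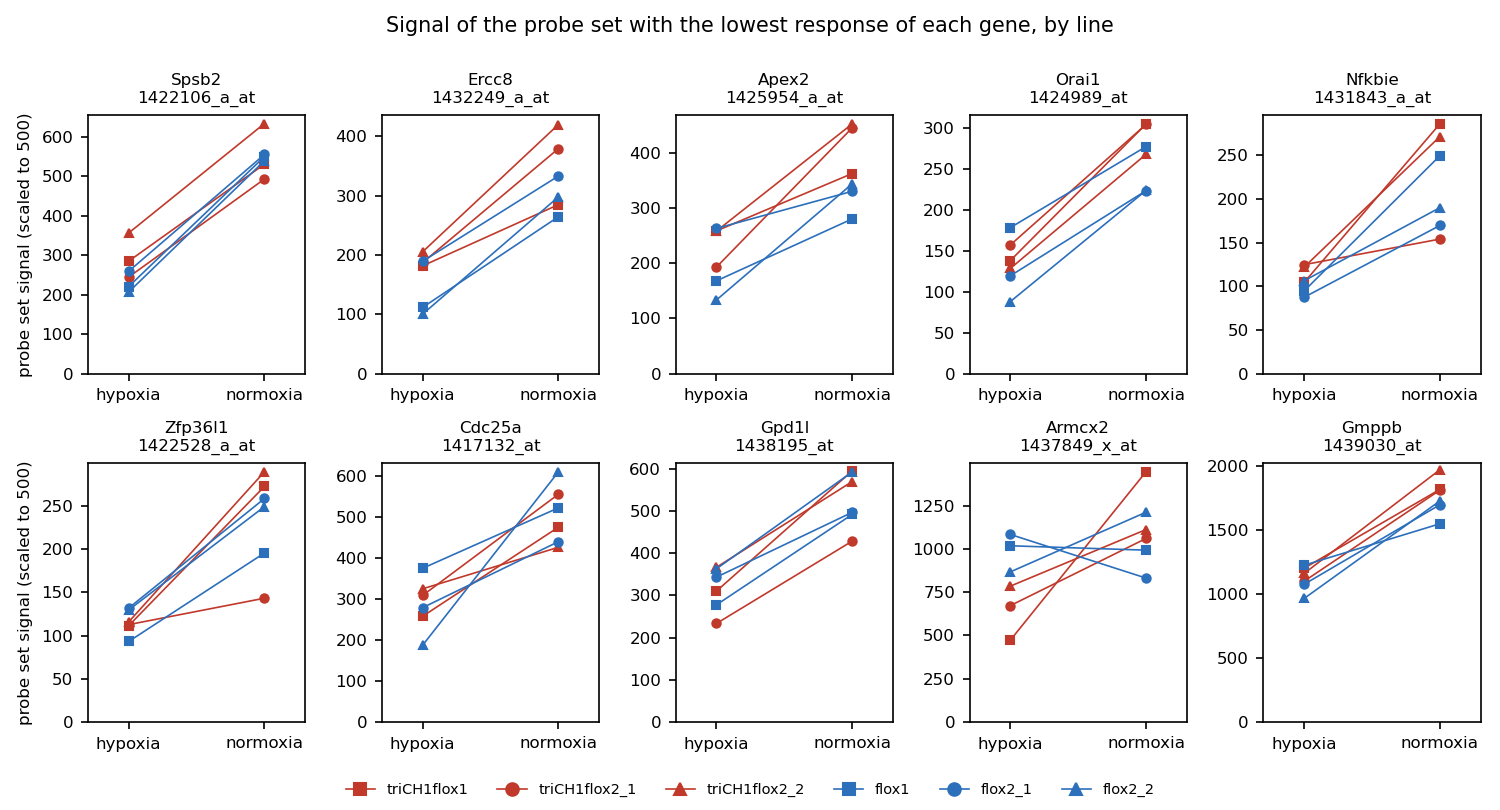
Signal of 1 probe set per gene, the one with the lowest response, in hypoxia (left) and normoxia (right) of each panel; the vertical axis starts at 0 and is the array signal scaled to 500. Each line joins the 2 arrays of 1 fibroblast line (red, triCH1; blue, control; shapes as in the legend). In every panel but Armcx2 all 6 lines have the lower value in hypoxia and the conditions do not overlap; in Armcx2 1437849_x_at the control lines flox1 and flox2_1 have the higher value in hypoxia.

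The 3 genes of calcium entry, NF-kB inhibition and mRNA decay had both probe sets lower in all 6 lines. Orai1 forms the pore of the calcium channel that opens when the endoplasmic reticulum store is empty. Its probe set 1424989_at read 138, 157 and 129 in the triCH1 lines and 179, 119.7 and 88.2 in the control lines in hypoxia, against 305, 305 and 268 in the triCH1 lines and 278, 224 and 224 in the control lines in normoxia. The conditions did not overlap, and the mean was 135 ± 31.2 in hypoxia and 267 ± 36.7 in normoxia (SD, n = 6 each), 50.6% of normoxia, a response of −0.90 ± 0.17 (SE). For 1424990_at the arrays gave 907, 738 and 900.5 in the triCH1 lines and 837, 624 and 812 in the control lines in hypoxia, against 1246, 997 and 1314 in the triCH1 lines and 1153, 802 and 1167 in the control lines in normoxia. Its conditions overlapped because the lines differed in level, but within a line the response was close to constant, at −0.53 to −0.35. The mean was −0.45 ± 0.14, an SE that leaves out the pairing by line, and the SD of the 6 line responses was 0.065. Line flox2_1 was the lowest of the 6 on that probe set in both conditions.

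Nfkbie encodes I-kappa-B epsilon, which holds NF-kB dimers in the cytoplasm and is itself an NF-kB target. The probe set 1431843_a_at measured 105, 125 and 122 in the triCH1 lines and 94.9, 87.6 and 106 in the control lines in hypoxia, against 286, 154 and 272 in the triCH1 lines and 249.7, 169.8 and 190.2 in the control lines in normoxia. Hypoxia arrays were all below normoxia arrays, with 107 ± 14.7 in hypoxia and 220.3 ± 56.0 in normoxia (SD, n = 6 each) and a response of −0.90 ± 0.19 (SE). The smallest response was that of triCH1flox2_1, −0.27, whose normoxia signal was the lowest of the 6. On 1458299_s_at, with 141 to 373 in hypoxia and 243 to 465 in normoxia, the conditions overlapped, and the response was −0.53 ± 0.22, −0.71 to −0.31 over the 6 lines.

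Zfp36l1 encodes a zinc finger protein that binds AU-rich elements and speeds the decay of the mRNAs that carry them. Its probe set 1422528_a_at gave 112, 113 and 116 in the triCH1 lines and 93.2, 132 and 129.7 in the control lines in hypoxia, against 273, 143 and 289.8 in the triCH1 lines and 196, 259 and 249 in the control lines in normoxia. There was no overlap, with 116 ± 14.1 in hypoxia and 235 ± 55.1 in normoxia (SD, n = 6 each), 49.3% of normoxia, and a response of −0.88 ± 0.19 (SE). Again triCH1flox2_1 had the lowest normoxia signal and the smallest response, −0.30. On 1450644_at the signals were 1816, 1183 and 1201 in the triCH1 lines and 1463, 1741 and 1461 in the control lines in hypoxia, against 2279, 1791 and 2601 in the triCH1 lines and 2270.0, 2339 and 2245 in the control lines in normoxia, a response of −0.61 ± 0.13. The overlap there was 1 pair of arrays: triCH1flox1 in hypoxia (1816) was above triCH1flox2_1 in normoxia (1791).

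The cell cycle gene Cdc25a and the metabolic genes Gpd1l and Gmppb were lower in hypoxia in each line on every tested probe set. Cdc25a encodes a phosphatase that activates cyclin-dependent kinases at the entry to S phase and is degraded when a checkpoint is active. Its probe set 1417132_at read 257, 308 and 324 in the triCH1 lines and 374, 278 and 187 in the control lines in hypoxia, against 475, 555 and 426 in the triCH1 lines and 522, 439 and 609 in the control lines in normoxia, with no overlap and a response of −0.78 ± 0.17 (SE). Line flox2_2 had both the lowest hypoxia and the highest normoxia signal, and its response of −1.61 was far below that of the next line, −0.83. The other probe set, 1417131_at, had 580.1, 732 and 685 in the triCH1 lines and 600.1, 509 and 663 in the control lines in hypoxia, against 1163, 992 and 986 in the triCH1 lines and 902, 731 and 1024 in the control lines in normoxia. Its response was −0.60 ± 0.13, flox2_2 did not stand apart there (−0.61), and 1 hypoxia array, triCH1flox2_1 at 732, reached 1 normoxia array, flox2_1 at 731. The remaining probe set, 1445995_at, had a mean signal of 15.3 and was lower in 2 of 6 lines.

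Gpd1l encodes a protein like glycerol 3-phosphate dehydrogenase, which interconverts glycerol 3-phosphate and dihydroxyacetone phosphate, and which in human cells modulates the hydroxylation of HIF and the cardiac sodium channel. The probe set 1438195_at gave 310.2, 233 and 367 in the triCH1 lines and 278, 343 and 363 in the control lines in hypoxia, against 595, 429 and 570.0 in the triCH1 lines and 492, 497 and 593 in the control lines in normoxia. The conditions did not overlap, and the mean was 316 ± 52.6 in hypoxia and 529 ± 67.2 in normoxia (SD, n = 6 each), 59.6% of normoxia, a response of −0.72 ± 0.15 (SE). Its second probe set, 1438196_at, gave 146, 108 and 100.0 in the triCH1 lines and 80.8, 109 and 106 in the control lines in hypoxia, against 224, 173 and 231 in the triCH1 lines and 167, 138 and 160.4 in the control lines in normoxia. Its response of −0.65 ± 0.17 was within 0.06 of that of the first, the closest match of probe sets among the 9 genes with more than 1.

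Gmppb encodes the catalytic subunit of GDP-mannose pyrophosphorylase, which makes the mannose donor of glycosylation. It has 1 probe set, 1439030_at, with 1202, 1099.9 and 1161 in the triCH1 lines and 1225, 1076 and 965 in the control lines in hypoxia, against 1818, 1812 and 1972 in the triCH1 lines and 1549, 1698 and 1728 in the control lines in normoxia. No arrays overlapped, with 1121 ± 95.5 in hypoxia and 1763 ± 142 in normoxia (SD, n = 6 each), 63.6% of normoxia, and a response of −0.64 ± 0.10 (SE). The smallest response, −0.33, was that of flox1, and the others lay between −0.83 and −0.59.

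Armcx2, a gene of the X chromosome that encodes an armadillo repeat protein and belongs to a family with members on the mitochondrial outer membrane, did not show a lower signal in both line types on the probe set with its lowest response. On 1437849_x_at the arrays read 472, 672 and 785 in the triCH1 lines and 1018, 1084 and 867 in the control lines in hypoxia, against 1447, 1061 and 1112 in the triCH1 lines and 993, 832 and 1213 in the control lines in normoxia. The triCH1 lines were lower in hypoxia in each case, by −0.49 to −1.57, whereas flox1 (0.04) and flox2_1 (0.37) had a higher signal in hypoxia and flox2_2 (−0.47) a lower one. The mean response was −0.90 ± 0.21 in the triCH1 lines and −0.02 ± 0.21 in the control lines (SE), a difference of −0.88 ± 0.30. The fit over all probe sets called 0 of 18903 for this difference (0% higher, 0% lower). That count does not show equal responses, because 131 had an unadjusted p under 0.05, fewer than the 945 expected by chance. The other 2 probe sets had small responses in both line types. For 1456739_x_at the signals were 5488, 5649.8 and 5671 in the triCH1 lines and 5263, 5238 and 5676 in the control lines in hypoxia, against 6699, 5899.6 and 6074 in the triCH1 lines and 6198, 5432 and 6173 in the control lines in normoxia, a response of −0.14 ± 0.08 with 6 of 6 lines lower. For 1415780_a_at the range was 2000.0 to 2312 in hypoxia and 1947 to 2660.3 in normoxia, a response of −0.13 ± 0.10 with 5 of 6 lines lower. The difference between line types, −0.88 on 1437849_x_at, was −0.10 ± 0.19 on 1415780_a_at and −0.01 ± 0.16 on 1456739_x_at (SE). Line flox2_1 had the highest response on each of the 3.

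**Figure D3:**
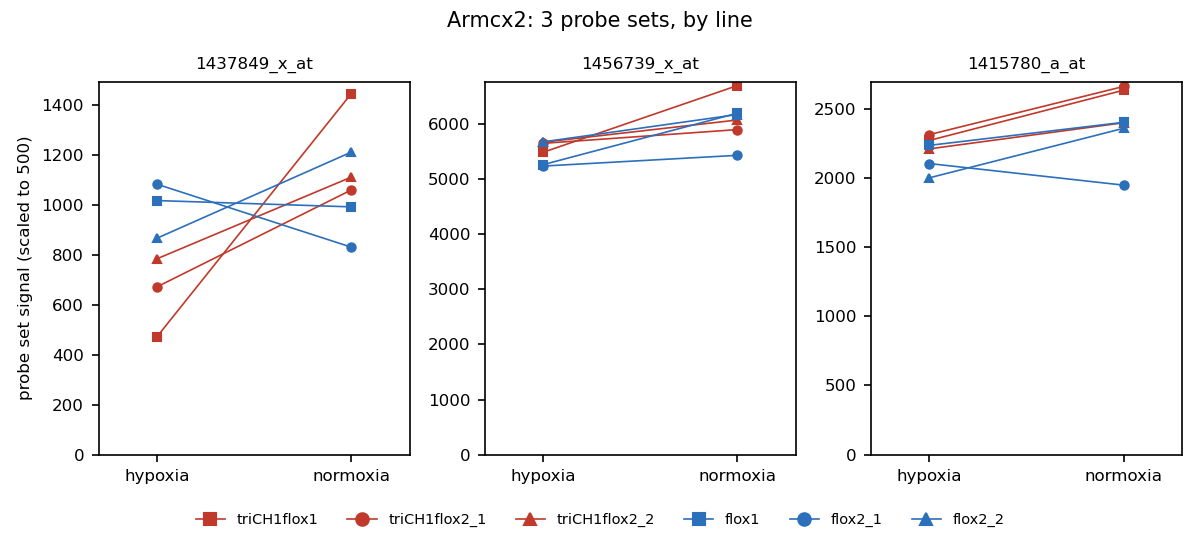
Signals of the 3 Armcx2 probe sets (scaled to 500, axes from 0) in hypoxia (left) and normoxia (right); each line joins the 2 arrays of 1 fibroblast line, red for triCH1 and blue for control. On 1437849_x_at the triCH1 lines have 472 to 785 in hypoxia and 1061 to 1447 in normoxia while 2 of 3 control lines are higher in hypoxia; on 1415780_a_at and 1456739_x_at all lines differ little between conditions.

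Probe sets of 1 gene differed in how regularly they were lower. Of the 9 genes with at least 2 tested probe sets, 5 had every one of them lower in all 6 lines (Orai1, Nfkbie, Zfp36l1, Cdc25a and Gpd1l), and Gmppb had 1 probe set, also lower in all 6. In Spsb2, Ercc8, Apex2 and Armcx2 1 probe set was lower in all 6 lines and the others in 4 or 5. The signs of all tested probe sets of a gene matched in 4 of 6 lines for Spsb2 and Armcx2, in 5 of 6 for Ercc8 and Apex2, and in 6 of 6 for the other 5. Of the 20 probe sets, with those of 1 gene counted separately, 12 had the more negative response in the triCH1 lines and 8 in the control lines. Over all 18903 tested probe sets the median difference of response, triCH1 minus control, was 0.008. The difference of response, triCH1 minus control, was 0.33 ± 0.27 for Spsb2 1422106_a_at, 0.25 ± 0.35 for Ercc8 1432249_a_at, −0.12 ± 0.27 for Zfp36l1 1450644_at and −0.08 ± 0.20 for Gmppb (SE). Because the genes were chosen for a lower signal in hypoxia in these same arrays, these differences are given as values only.

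The level of the genes, averaged over hypoxia and normoxia, was tested between line types. This contrast is not the one by which the genes were chosen. With limma on the 6 line means, 0 of the 20 were called, and 0 had an unadjusted p under 0.05. The estimates, triCH1 minus control, were above 0 in 16 and below in 4, from −0.19 to 0.37 with a median of 0.15 (smallest adjusted p = 0.561). Over all 18903 probe sets the same fit called 0% higher and 0% lower, 1858 had an unadjusted p under 0.05, and the median was 0.03. Ercc8 1432249_a_at had the highest estimate, 0.37 ± 0.20 (SE), with line means of 276 ± 40.0 in the triCH1 lines and 216 ± 39.4 in the control lines (SD, n = 3 each). Apex2 1425954_a_at had 0.36 ± 0.18, with 328 ± 23.7 in the triCH1 lines and 253 ± 38.3 in the control lines, and Armcx2 1437849_x_at the lowest, −0.19 ± 0.13, with 925 ± 50.8 in the triCH1 lines and 1001 ± 41.3 in the control lines. With lines named alike as a replicate block the fit called 59 probe sets higher and 136 lower, and without triCH1flox1 it called 225 and 274. None of the 10 genes, each taken by its brightest probe set, was among them, with a smallest adjusted p of 0.314 and 0.288.

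Lines with a floxed Crebbp allele (flox1 and triCH1flox1) were also set against those with a floxed Ep300 allele, with line type as a term. In limma 0 of the 20 were called, against 0.0106% higher and 0.0317% lower among all tested probe sets. The estimates, floxed Crebbp minus floxed Ep300, were above 0 in 13 and below in 7, from −0.27 to 0.55, and the median over all probe sets was −0.03. Nfkbie 1458299_s_at, the 1 of the 20 with an unadjusted p under 0.05 (3843 of all 18903 had one), had 0.53 ± 0.23 (SE, limma adjusted p = 0.237), with 359.7 ± 83.9 with floxed Crebbp (n = 2) and 246 ± 51.4 with floxed Ep300 (SD, n = 4). The second Nfkbie probe set, 1431843_a_at, had 0.16 ± 0.21. Spsb2 1451585_x_at had 0.55 ± 0.28 and Ercc8 1432249_a_at −0.27 ± 0.19. Only 2 lines carry a floxed Crebbp allele.

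Of 161 tested genes that share a role with the 10, 4 passed limma's test, 3 higher (1.86%) and 1 lower (0.621%) in hypoxia, against 1.42% and 0.328% of all tested probe sets. With each line as a replicate block 12 passed, 9 higher (5.59%) and 3 lower (1.86%), while that fit called 2.41% of all probe sets higher and 1.26% lower. The lists count genes and the background counts every tested probe set, so the shares are of unlike units. The genes were taken as 11 lists of other genes of the same families, complexes and pathways, each gene by its brightest probe set, and list medians stand beside a median of −0.03 over all tested probe sets. Among 12 tested genes of SPSB and SOCS box ubiquitin ligases 1 fell, Socs5 (1423349_at), an inhibitor of cytokine signalling, with 2729 ± 212 in hypoxia and 3774 ± 466 in normoxia (SD, n = 6 each) and a response of −0.46 ± 0.10 (SE, limma adjusted p = 0.029). That call was lost in 14 of 18 refits that left out 1 array or 1 line (adjusted p up to 0.153); it stood without triCH1flox2_2, its normoxia array, the normoxia array of flox2_1 or the hypoxia array of flox2_2. It was also lost with arrays centred on their median, with 1 value per gene and without the variance trend (adjusted p = 0.126, 0.0711 and 0.0622). Spsb2's relatives Spsb1 (1420150_at), Spsb3 (1417891_at) and Spsb4 (1451418_a_at) had −0.06 ± 0.14, −0.04 ± 0.14 and 0.20 ± 0.23, and the list's median was −0.05. Of 17 nucleotide excision repair genes 0 passed, with a median of −0.07; the helicase gene Ercc2 (1460727_at) had −0.77 ± 0.32 and the damage sensor gene Xpc (1422532_at) −0.47 ± 0.23. Of 16 base excision repair genes 0 passed, with a median of −0.12; the ligase gene Lig3 (1423419_at) had −0.28 ± 0.11 and Apex1 (1437715_x_at), the main apurinic endonuclease gene and Apex2's paralogue, −0.33 ± 0.15. Across these repair lists Ercc2 (adjusted p = 0.376) passed with each line as a replicate block (0.0464).

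Among 13 store-operated calcium entry genes 1 rose, the cation channel gene Trpc1 (1421096_at), with 404 ± 100.0 in hypoxia and 213 ± 66.7 in normoxia (SD, n = 6 each) and a response of 0.87 ± 0.16 (SE, limma adjusted p = 0.0116). It no longer passed without flox1, flox2_2 or triCH1flox2_1 (adjusted p = 0.0719, 0.0912 and 0.0548). Orai1's paralogue Orai2 (1434763_at) had −0.29 ± 0.15, Orai3 (1434064_at) −0.01 ± 0.15, and the calcium sensor genes Stim1 (1448320_at) and Stim2 (1434219_at) 0.03 ± 0.22 and −0.12 ± 0.12, and the list's median was −0.09. Of 13 NF-kB and I-kappa-B genes 0 passed, with a median of −0.11. The precursor gene Nfkb2 (1425902_a_at) had −0.47 ± 0.17, and the inhibitor gene Tnfaip3 (1433699_at) 0.59 ± 0.23 (adjusted p = 0.313, and 0.0186 with the block). Nfkbia (1420088_at) and Nfkbib (1421266_s_at), the I-kappa-B genes closest to Nfkbie, had −0.21 ± 0.11 and −0.29 ± 0.13. Of 17 genes of AU-rich element decay 1 rose, the deadenylase gene Cnot7 (1423641_s_at), by 0.89 ± 0.14 (SE, limma adjusted p = 0.00222), and the stabilising factor gene Elavl1 (1431037_a_at) had −0.22 ± 0.10. Zfp36l1's paralogues Zfp36 (1452519_a_at) and Zfp36l2 (1437626_at) had −0.19 ± 0.18 and 0.04 ± 0.21, and the median was −0.01.

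Of 22 CDC25, cyclin and CDK genes 0 passed, with a median of −0.01. Cdc25b (1421963_a_at) and Cdc25c (1456077_x_at), which act mainly at mitosis, had 0.13 ± 0.23 and −0.04 ± 0.22, the G1 cyclin gene Ccne1 (1441910_x_at) −0.44 ± 0.18, and the CDK inhibitor gene Cdkn1b (1434045_at) 0.65 ± 0.31 (adjusted p = 0.453, and 0.0172 with the block). Of 13 glycerol 3-phosphate genes 1 rose, the phosphatase gene Pgp (1452919_a_at), by 0.87 ± 0.14 (limma adjusted p = 0.00276), with a median of −0.09. Lpin1 (1426516_a_at), a phosphatidate phosphatase gene, had 0.80 ± 0.21 (adjusted p = 0.0827, and 0.0225 with the block), and Gpd2 (1417434_at), the mitochondrial glycerol 3-phosphate dehydrogenase gene, −0.13 ± 0.11. Of 7 genes of, or related to, the ARMCX and GASP cluster on the X chromosome 0 passed, with a median of 0.04. Armcx1 (1425914_a_at) had 0.77 ± 0.21 (adjusted p = 0.105, and 0.0276 with the block), the reverse sign to Armcx2, Armcx3 (1424373_at) 0.00 ± 0.13 and Armc10 (1417062_at), a related autosomal gene, −0.24 ± 0.13. Of 21 mannose activation and N-glycan assembly genes 0 passed, with a median of −0.09. The dolichol pyrophosphatase gene Dolpp1 (1428072_a_at) had −0.51 ± 0.14 and the mannosyltransferase gene Alg11 (1434187_at) 0.74 ± 0.20 (adjusted p = 0.0969 and 0.0992, and 0.0496 and 0.0415 with the block), while Gmppa (1460594_a_at), the regulatory partner of Gmppb, had 0.01 ± 0.14. Of 11 genes reported as miR-210 targets in human cells, Gpd1l left aside, 0 passed, with a median of −0.0011. Among them the activin receptor gene Acvr1b (1433725_at) had 0.70 ± 0.17 (adjusted p = 0.0534, and 0.0322 with the block) and the phosphatase gene Ptpn1 (1417068_a_at) −0.33 ± 0.11.

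**Figure D4:**
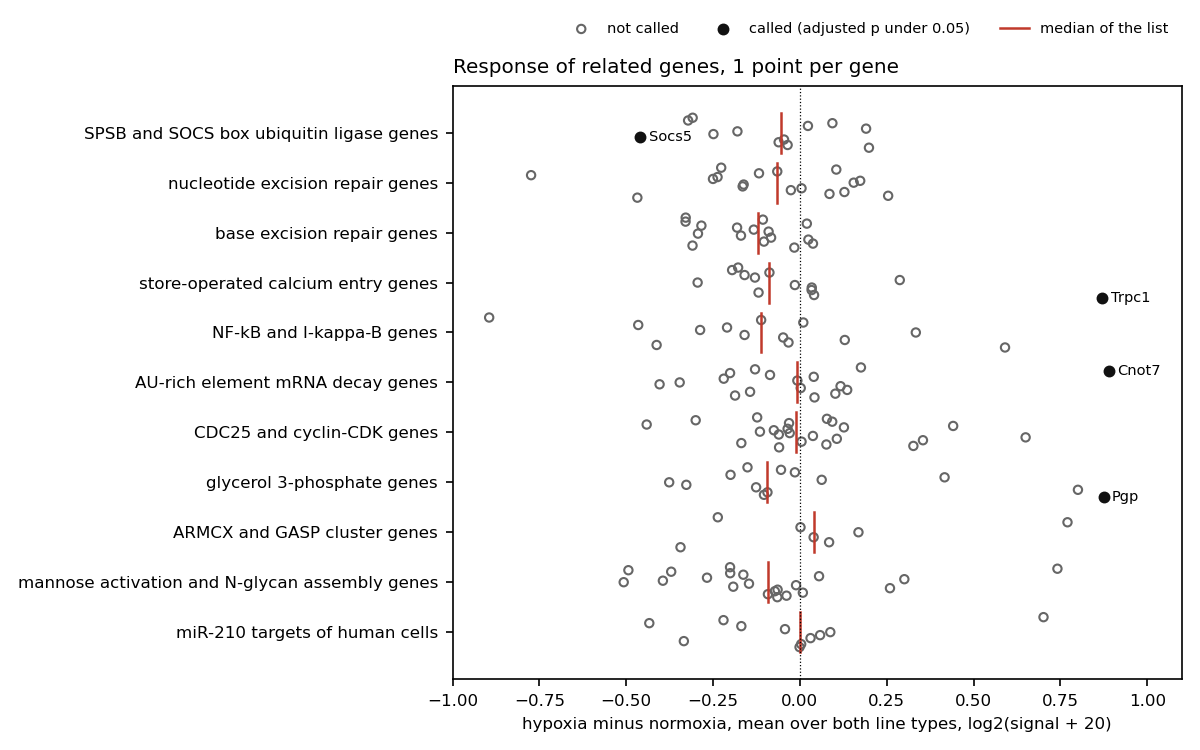
Response to hypoxia (log2(signal + 20), mean over both line types) of the tested genes in the 11 lists of related genes, 1 point per gene; filled points passed limma's test at an adjusted p under 0.05 and are named, and red bars are list medians. Socs5 is the 1 filled point below 0 (−0.46), and Trpc1, Cnot7 and Pgp are filled above 0 (0.87 to 0.89).

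The genes whose signal over the 12 arrays was most like the mean profile of the 10, out of 10049 other genes, were Pop5 (1417972_s_at), a subunit gene of ribonucleases P and MRP, with Pearson's r of 0.955, Ccdc86 (1454197_a_at) with 0.954, Surf6 (1416864_at), a nucleolar protein gene, with 0.941, and Kti12 (1416106_at) with 0.937. Then came Bysl (1422767_at), a gene of small ribosomal subunit assembly, with 0.932, Pml (1448757_at), which organises nuclear bodies, with 0.931, Wdr55 (1426496_at) with 0.930 and Sdhaf1 (1433936_at), an assembly factor gene of succinate dehydrogenase, with 0.928. The 12 arrays share their lines and treatment, so these values are a description with no test. Pop5 had 635 to 1016 in hypoxia and 939.6 to 1489 in normoxia, so its conditions overlapped. Ccdc86 had 837 to 1259.8 in hypoxia and 1270.2 to 1749 in normoxia, with no overlap. All 8 had a negative response, from −0.65 (Pop5 and Ccdc86) to −0.38 (Sdhaf1). The profile is that of genes chosen for a lower signal in hypoxia, so this sign follows from the likeness.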

How the data were processed

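Signal intensities of 12 Affymetrix Mouse430_2 arrays (biotin label, 1 colour) were used as deposited by the authors. Per the labels, they come from Affymetrix's Statistical algorithm with scaling to a target of 500; the mean without the lowest and highest 2% of an array was 500.0 in each, and software versions are not given in the sources used here. Of 45101 probe sets 64 controls were left out. Names came from the array's annotation: 34945 probe sets had 1 symbol, 932 several and 9160 none listed. The labels gave line and oxygen, hence 4 groups of 3 arrays.

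Log2(signal + 20) of 18903 probe sets (10059 genes), those averaging at least 100 over the arrays, was fitted in limma 3.58.1 (R 4.3.3; lmFit, eBayes with a variance trend). The hypoxia fit estimated the 4 group means, leaving 8 residual degrees of freedom, and the comparisons of line types and of floxed genes used line means with 4. Tests were two-sided, and called means a Benjamini-Hochberg adjusted p under 0.05 over all tested probe sets. The p-values measure the spread between these arrays, whose number limits the precision.

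The hypoxia and normoxia arrays of 1 line name are paired; after removal of group means they correlated with r between −0.02 (flox2_2) and 0.58, and triCH1 and control lines named alike with 0.21 to 0.39. Alternatives were other pseudocounts, filters, normalizations and variance settings, 1 value per gene, replicate blocks, the floxed gene as a covariate, and omission of each array and line. The 10 genes and the lists were chosen with earlier results of these data known. Named were every probe set of the 10 genes and, in each list, up to 4 called genes by smallest p, or, with fewer than 2 called, those with the smallest p, and also Bnip3, Pdk1, Egln3, Slc2a1, Col1a1, Col1a2, Thy1 and the 8 genes most like the mean profile, in which each gene has its brightest probe set. Spsb1, Spsb3, Spsb4, Orai3, Stim1, Stim2, Nfkbia, Nfkbib, Zfp36, Zfp36l2, Cdc25b, Cdc25c, Gpd2, Armcx3, Gmppa, Myod1, Myog, Cdh1, Csf1r and Cd68 were named after their values were seen, as close relatives or defining markers. Car9 and Krt18 were also named after their values were seen.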

Additional observations from a re-analysis of the deposited data

How the results depend on the processing

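The median response of the 20 probe sets of the 10 genes was −0.63 in the analysis above and −0.57 with a pseudocount of 100. It was −0.70 to −0.59 when 1 array or line was left out. Its sign, below 0 under all 28 alternatives, follows from the choice of the genes by their fall in these arrays, so it is no check of that fall. Counts over all probe sets also moved. For hypoxia minus normoxia, 269 were called higher and 62 lower; with each line as a replicate block these were 455 and 238, with 1 value per gene 175 higher, with arrays centred on their median 37 lower, and over the omissions 179 to 265 higher and 11 to 62 lower. The lower count was 18, 17, 13, 35, 11 and 20 without flox2_1, triCH1flox2_1, flox1, triCH1flox1, flox2_2 and triCH1flox2_2. The difference in response between line types gave 0 calls under every alternative run. In the analysis above 131 had an unadjusted p under 0.05, fewer than the 945 expected by chance. The 0 calls therefore do not show that the line types respond alike. For triCH1 minus control, 0 calls in each direction became 59 higher and 136 lower with lines named alike as a replicate block, 17 and 61 with the floxed gene as a covariate, 1 and 10 without a filter, 1 lower with centring, with 1 value per gene and with a robust fit, and 0 to 225 higher and 0 to 274 lower over the omissions, the highest without triCH1flox1. For floxed Crebbp minus floxed Ep300, 2 higher and 6 lower became 0 and 2 with quantile normalization and without the variance trend, 16 and 37 with centring, 24 and 45 without a filter, 1 and 3 with 1 value per gene, 11 and 16 with a robust fit, and 0 to 8 and 0 to 15 over the omissions. The cause of these shifts was not tested. None of the 10 genes, by its brightest probe set, was called in the last 2 comparisons under any alternative. Beyond the calls named beside the results, taking each line as a replicate block changed no other hypoxia call in the lists of related genes, HIF targets and markers.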
